A study of Homo sapiens with 12 samples.

Results

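Oxidative phosphorylation is carried out by 5 protein complexes of the mitochondrial inner membrane, and the nuclear genes for their subunits were followed here across macrophages polarized in opposite directions with and without a phthalate metabolite. Genes were taken by name from the protein-coding rows of the count table: NDUF genes of the A, B, C, S and V series, SDHA to SDHD, UQCR genes and CYC1, COX4 to COX8 genes with a plain isoform name, and genes beginning with ATP5. The names chose 88 of 58907 rows, and 80 of the 88 held enough counts to be tested, among 15252 tested genes. The rule uses names and no measured value, although it was set with earlier results of these data known.

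The cells were PPRE-eGEP-THP-1, a derivative of THP-1, a human monocytic leukaemia line, labelled as monocytes. All 12 libraries came from cells kept 48 h in PMA (25 ng/mL), a phorbol ester that turns THP-1 cells into resting macrophages, and then rested for 24 h. M1 cells then received lipopolysaccharide (100 ng/mL) with interferon gamma (20 ng/mL), and M2 cells interleukin 4 with interleukin 13 (20 ng/mL each), for 24 h. In each state 3 libraries had monocyclohexyl phthalate (MCHP, 100 µM) for the same 24 h and 3 had solvent, labelled DMSO, which gave 4 groups. All libraries are of this single line, and the labels call the 3 libraries of a group biological replicates without saying how the cultures were separated, so p-values measure the spread between these libraries.

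Complex I (NADH dehydrogenase) and complex II (succinate dehydrogenase) pass electrons from NADH and succinate to ubiquinone, complex III passes them to cytochrome c, and complex IV (cytochrome c oxidase) passes them to oxygen. Complexes I, III and IV pump protons, and complex V (ATP synthase) lets them return to make ATP. Most subunits are nuclear-encoded and imported, while a small set of core subunits is made inside the mitochondrion from its own genome, so the complexes draw on both genomes. Macrophages driven by lipopolysaccharide and interferon gamma are known for a shift towards glycolysis and a broken citrate cycle, and macrophages driven by interleukin 4 for reliance on mitochondrial respiration.

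Promoters of such genes are known for sites of NRF1, of the ETS factor GABPA and of YY1, and 66 of the 88 genes matched an entry of RefSeq promoter windows (GRCh38.p14, 250 bases before to 50 after the start). Exact letters were searched on both strands, and the strings do not contain one another. The NRF1 string, GCGCA followed by its reverse complement TGCGC, was in 4 of the 66 windows (6.06%) and in 1.36% of 27305 promoters of the same 300 bases. The ETS string CCGGAAG was in 18 (27.3%) against 10.7% of all, and the YY1 string AAGATGGCG in 8 (12.1%) against 1.85%. The ERR string TCAAGGTCA was in 1 window (1.52%) against 0.359%, the SP1 string GGGCGGG in 17 (25.8%) against 32.9%, and the TATA string TATAAA in 7 (10.6%) against 12.0%. A match is a description of letters, not of a bound site.

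Windows of 4 genes are shown because they cover a gene that fell most between M1 and M2 and holds none of these strings (NDUFB6), genes that fell and hold the NRF1 string (NDUFB4) or the ETS and SP1 strings (COX5B), and a gene that holds 2 ETS strings and was not called in DMSO (UQCR11, -0.25, or -0.32 and called without M2 DMSO replicate 1). Each stops at the base before the gene model of the count table, runs 5′ to 3′ on the strand of the gene, and has the searched strings in capitals. NDUFB6 lies at chr9:32573185-32573409 on the minus strand, NDUFB4 at chr3:120596086-120596308 and COX5B at chr2:97645812-97646039 on the plus strand, and UQCR11 at chr19:1605491-1605712 on the minus strand.
NDUFB6: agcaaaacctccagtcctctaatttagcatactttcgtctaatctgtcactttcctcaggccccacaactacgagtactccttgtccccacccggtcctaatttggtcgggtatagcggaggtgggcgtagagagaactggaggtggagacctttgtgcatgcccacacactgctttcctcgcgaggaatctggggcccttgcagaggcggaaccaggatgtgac
NDUFB4: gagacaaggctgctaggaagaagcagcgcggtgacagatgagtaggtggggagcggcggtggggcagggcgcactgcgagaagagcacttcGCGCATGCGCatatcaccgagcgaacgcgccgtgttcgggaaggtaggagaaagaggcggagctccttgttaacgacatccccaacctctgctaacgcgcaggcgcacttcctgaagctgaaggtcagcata
COX5B: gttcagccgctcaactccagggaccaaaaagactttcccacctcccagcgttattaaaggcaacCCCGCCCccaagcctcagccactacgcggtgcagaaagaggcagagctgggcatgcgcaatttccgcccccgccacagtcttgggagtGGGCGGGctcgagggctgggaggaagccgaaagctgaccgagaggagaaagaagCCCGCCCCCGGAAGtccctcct
UQCR11: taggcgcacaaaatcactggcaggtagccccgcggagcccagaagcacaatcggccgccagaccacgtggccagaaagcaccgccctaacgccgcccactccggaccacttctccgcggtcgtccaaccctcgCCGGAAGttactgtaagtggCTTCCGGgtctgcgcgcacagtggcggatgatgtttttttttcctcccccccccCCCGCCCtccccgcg
In COX5B the last SP1 string, CCCGCCC, runs directly into the ETS string CCGGAAG. Among windows of genes that were lower in M1 in DMSO, 7 of 33 (21.2%) held the ETS string, and among those of the other tested genes 11 of 28 (39.3%). The NRF1 string went the other way, in 3 of 33 (9.09%) and 1 of 28 (3.57%), the YY1 string was in 3 and 5, the SP1 string in 8 and 9, the TATA string in 3 and 3 and the ERR string in 0 and 1. These differences were not tested.

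Library totals ran from 14352202 to 16871233 counts, and the tested genes held at least 99.8% of each. Macrophage markers were present in every group (summed level 1400 to 1630 CPM, a library's counts scaled to a common total with TMM factors), although CD68 was at 0.508 CPM or below in every library. M1 markers summed to 1130 to 1310 CPM in M1 and 0.456 to 1.28 CPM in M2, although CCR7 was at 0.459 CPM or below in every library. M2 markers, led by TGM2, summed to 2150 to 2380 CPM in M1 and 8810 to 11500 CPM in M2. Of the M2 markers, CCL17 and MRC1 were at 0.294 CPM or below in every library. Of markers of other cell types, those of T cells summed to at most 0.127 CPM, while the fibroblast list, 2 of 4 with counts and led by COL1A1, was at 114 to 136 CPM in M1 and 21.9 to 31.7 CPM in M2, and DCN and COL3A1 were at 0. The endothelial list, led by PECAM1, was at 824 to 933 CPM in M1 and 1150 to 1250 CPM in M2. These lists moved with polarization, and their part in the results on subunit genes was not tested. M2 DMSO replicate 1 stood apart: the SD of its log2 differences from the other M2 DMSO libraries was 0.425 over the 80 subunit genes, against 0.144 to 0.287 in the other 11 libraries.

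Subunit genes as a set were lower in M1 than in M2. Together they held 3917, 4169 and 3933 CPM in the M1 DMSO libraries and 5214, 5167 and 5434 CPM in the M2 DMSO libraries. No M1 library reached an M2 library, and the mean in M1 was 0.760 of that in M2. With MCHP the sums were 3829, 3781 and 3794 CPM in M1 and 5210, 5518 and 4935 CPM in M2, a ratio of 0.728, again with no overlap. In these bulk libraries a smaller share of the RNA and less RNA per cell cannot be told apart.

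In DMSO 44 of the 80 genes fell and 1 rose (edgeR quasi-likelihood test over all genes, Benjamini-Hochberg adjusted p under 0.05, here termed called). Over all tested genes 20.9% fell and 21.6% rose, so the share of subunit genes that fell, 55.0%, was above that background. Counted by libraries that do not overlap, 44 lay lower and 2 higher, beside 24.1% and 25.5% of all tested genes. The median log2 difference (M1 over M2) of the 80 genes was -0.32, with 71 below 0, beside -0.004 over all tested genes. The falls were modest: the called folds ran from 0.424 to 0.892 with a median of 0.721, and 1 was under 0.5. With MCHP 44 genes fell and 2 rose, beside 22.7% and 21.9% of all tested genes (44.6% in either direction), with a median of -0.34. Libraries did not overlap for 45 lower and 2 higher genes, beside 28.8% and 28.3%. The DMSO and MCHP comparisons share no library, although they share the estimate of spread. In both of them 39 genes fell, 88.6% of each list, while 29 fell or rose in neither. The matching overlap over all tested genes was not counted, so 88.6% is not read as particular to the subunit genes. The falls did not rest on the library that stands apart: without M2 DMSO replicate 1, 51 genes fell and 2 rose in DMSO. The shares of all tested genes in that fit were not counted, so the 51 stand beside no background.

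**Figure D1:**
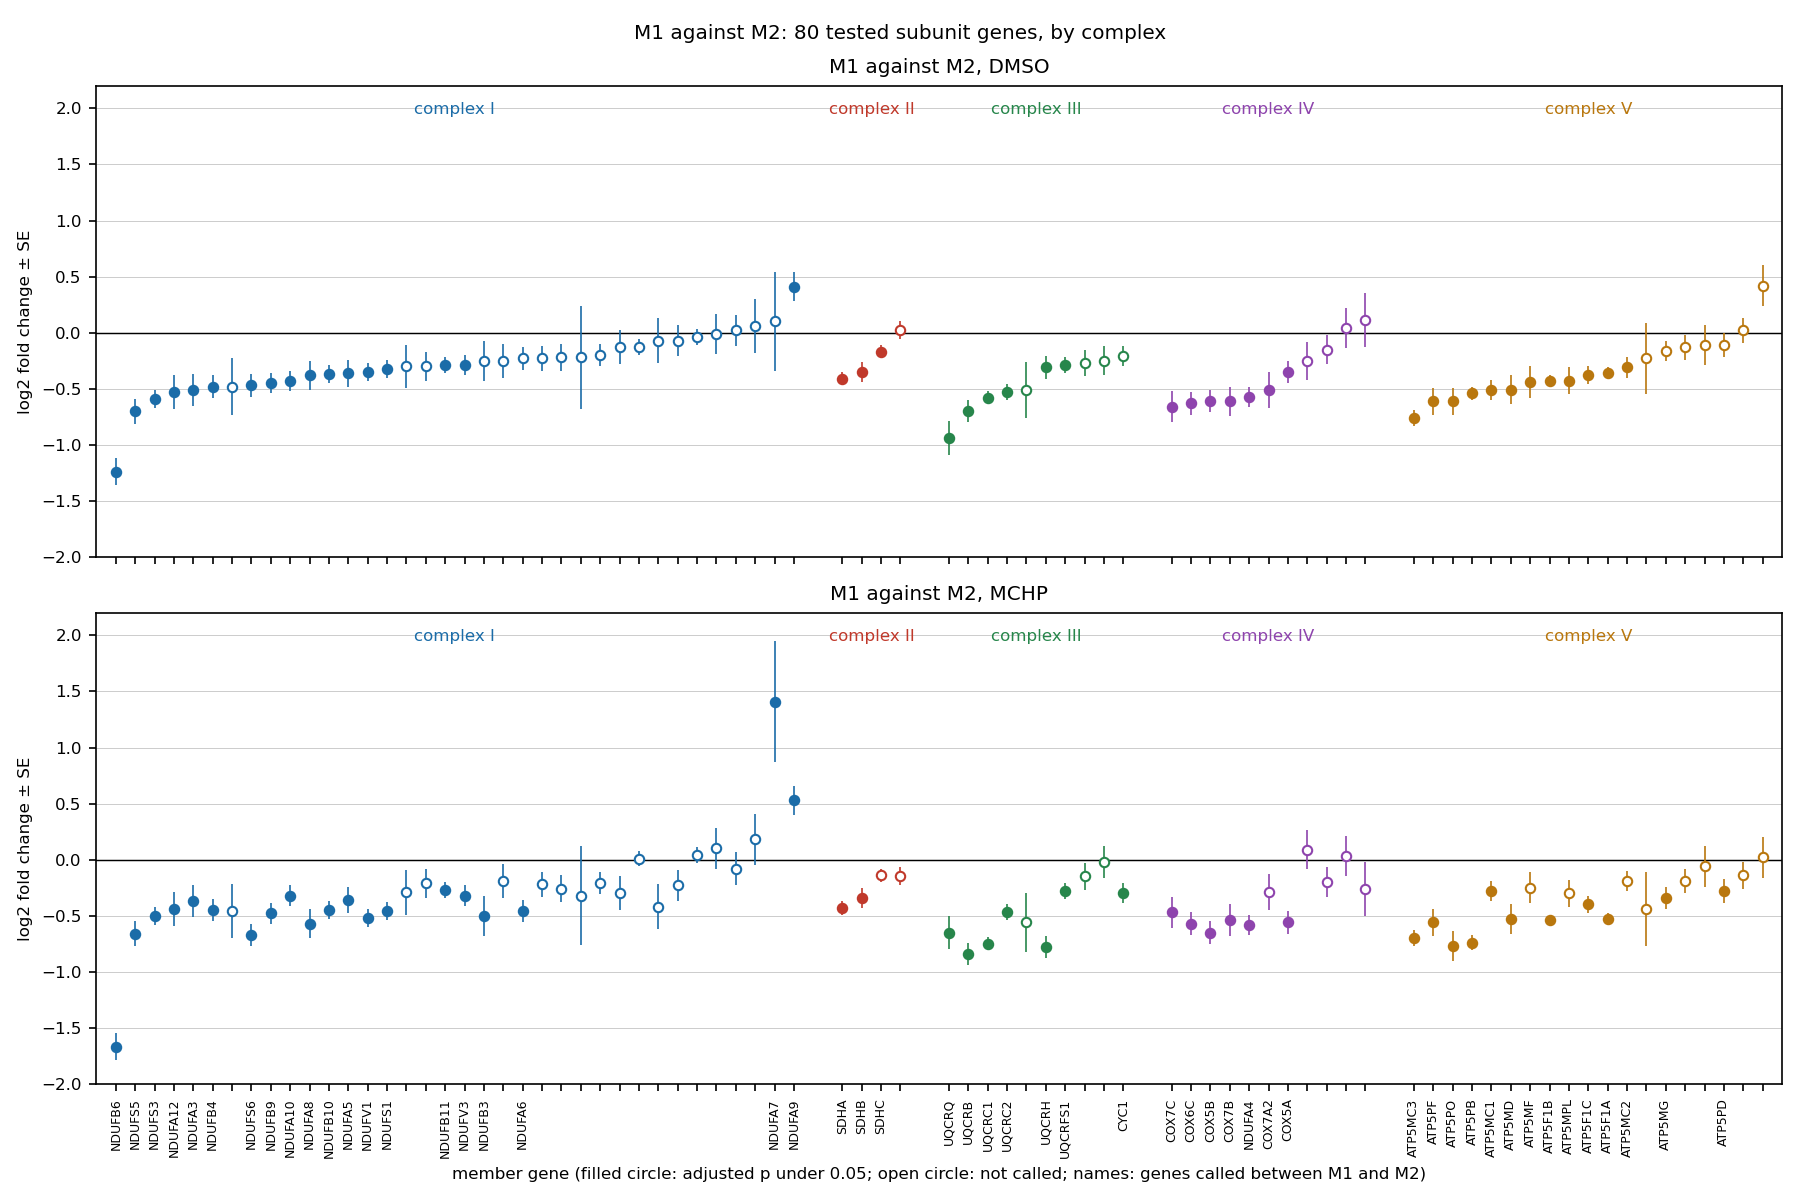
Log2 fold change (M1 over M2) with its standard error for the 80 tested subunit genes, grouped by complex and ordered by the DMSO value, in DMSO (top) and with MCHP (bottom); filled circles are called, open circles are not, and names are given for genes called in either panel. Most points lie below 0 in all 5 complexes, NDUFB6 is lowest in both panels (-1.24 and -1.67), and NDUFA9 is called above 0 in both.

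All 5 complexes had a lower summed level in M1, and none of them overlapped between states. In DMSO the ratio of M1 to M2 was 0.794 for complex I, 0.800 for complex II, 0.717 for complex III, 0.730 for complex IV and 0.757 for complex V, and with MCHP it was 0.771, 0.787, 0.670, 0.731 and 0.712. The differences between complexes were not tested. The sums are led by a few abundant genes, so the counts of genes per complex are given with each. These counts, and those for parts of a complex, stand beside 20.9% of all tested genes that fell in DMSO and 21.6% that rose. With MCHP the shares of all tested genes were 22.7% and 21.9%.

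**Figure D2:**
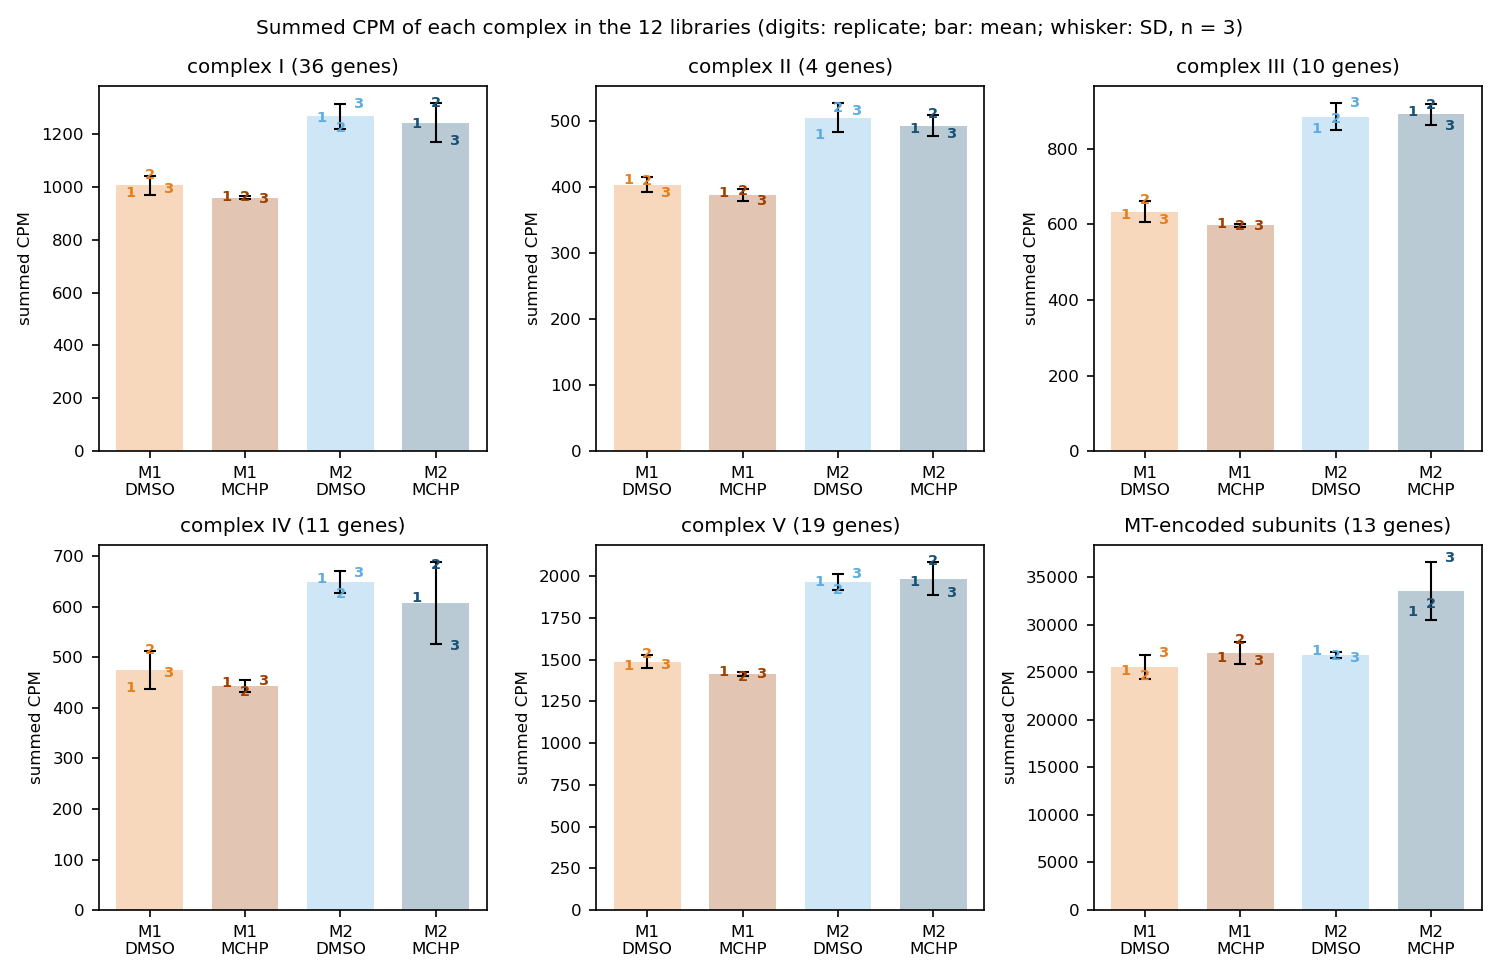
Summed CPM of the tested genes of each complex, and of the 13 subunits encoded by the mitochondrial genome, in each library (digits are replicate numbers), with the group mean as a bar from 0 and the SD as a whisker. In every nuclear panel the 6 M1 libraries lie below the 6 M2 libraries, and in the mitochondrial panel the 3 M2 MCHP libraries lie highest.

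In complex I, 16 of 36 tested genes fell in DMSO and 1 rose, with a median of -0.29, and 18 fell and 2 rose with MCHP, with a median of -0.32. NDUFB6, an accessory subunit of the membrane arm (ENSG00000165264, chr9:32552999-32573184), had 7.22, 6.94 and 8.21 CPM in M1 DMSO and 18.5, 15.2 and 19.0 CPM in M2 DMSO. With MCHP it had 6.20, 6.83 and 6.36 CPM in M1 and 20.2, 22.1 and 19.2 CPM in M2. Every M1 library, at most 8.21 CPM, was below every M2 library, at least 15.2 CPM. The log2 fold change was -1.24 (SE 0.12, edgeR adjusted p = 8.5e-08) in DMSO and -1.67 (SE 0.12, edgeR adjusted p = 1.5e-09) with MCHP. This was the only subunit gene that fell below 0.5 of its M2 level in either comparison.

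Further complex I genes that fell held smaller differences. NDUFS5, an accessory subunit of the intermembrane-space side, had 43.1, 51.0 and 40.6 CPM in M1 DMSO and 86.6, 65.3 and 66.6 CPM in M2 DMSO, a log2 difference of -0.70. NDUFS3, a core subunit of the arm that reaches into the matrix, had 32.6, 29.7 and 27.9 CPM against 44.2, 45.7 and 46.2 CPM, a log2 difference of -0.59. It shares 22.4% of its exon bases with another gene, which makes its count less certain. Neither gene had M1 and M2 libraries that overlapped, and both fell with MCHP as well (-0.66 and -0.50). The accessory subunits NDUFA12 (-0.53 in DMSO, -0.44 with MCHP), NDUFS6 (-0.47 and -0.67) and NDUFA8 (-0.38 and -0.57) fell in both comparisons too. The NDUFA8 call in DMSO was lost in 5 of 14 alternatives and the NDUFA12 call with MCHP in 4 of 15, each among them single libraries left out.

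Of the 7 core subunits, which carry the flavin, the iron-sulfur clusters and the ubiquinone site, NDUFS3, NDUFV1 and NDUFS1 fell in both comparisons. NDUFV1, the subunit that binds NADH and flavin, had a log2 difference of -0.35 in DMSO and -0.52 with MCHP, and NDUFS1, the largest iron-sulfur subunit, -0.32 and -0.46. NDUFS7 and NDUFS8, which carry iron-sulfur clusters near the ubiquinone site, were not called (-0.13 each in DMSO), and NDUFS7 shares 49.1% of its exon bases. Without M2 DMSO replicate 1 NDUFS8 fell (-0.20, edgeR adjusted p = 0.011). NDUFV2, another core subunit, had only 125 counts in all 12 libraries, and named pseudogenes of it held 140, so its value (-0.22, SE 0.46) says little. Of the 29 accessory subunits tested, 13 fell and 1 rose in DMSO.

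NDUFA9, an accessory subunit at the junction of both arms of complex I (chr12:4649095-4694317), ran against the rest. It had 12.3, 11.7 and 10.1 CPM in M1 DMSO and 7.88, 9.89 and 7.87 CPM in M2 DMSO, then 12.7, 11.3 and 10.9 CPM in M1 MCHP and 7.23, 8.42 and 8.63 CPM in M2 MCHP. The lowest M1 library exceeded the highest M2 library in both pairs of groups, in DMSO by a small margin. The log2 fold change was 0.41 (SE 0.13, edgeR adjusted p = 0.018) in DMSO and 0.53 (SE 0.13, edgeR adjusted p = 0.0035) with MCHP. The DMSO call was lost with library size alone as the scaling and without M1 DMSO replicate 1, M1 DMSO replicate 2 or M2 DMSO replicate 3, while the MCHP call held in all 15 alternatives. NDUFA7 was also called higher with MCHP (log2 1.41, edgeR adjusted p = 0.04), at 0.501, 0.436 and 1.11 CPM in M1 and 0.258, 0.290 and 0.205 CPM in M2. At these few counts that call was lost in 8 of 14 alternatives, and the gene shares 33.5% of its exon bases.

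Complex II is entirely nuclear-encoded, and 3 of its 4 subunits fell in DMSO. SDHA, the flavoprotein that oxidizes succinate, had 258, 256 and 246 CPM in M1 DMSO and 300, 355 and 352 CPM in M2 DMSO. The groups stood apart, with the M2 library nearest to M1 being replicate 1. SDHA fell by 0.41 on the log2 scale in DMSO (SE 0.06, edgeR adjusted p = 3.2e-05) and by 0.43 with MCHP. SDHB, the iron-sulfur subunit, fell by 0.35 and 0.34. SDHC and SDHD anchor the enzyme in the membrane and bind ubiquinone. SDHC had a log2 difference of -0.17 in DMSO (edgeR adjusted p = 0.038) and -0.14 with MCHP (0.081), and the DMSO call was lost in 7 of 14 alternatives, among them each M1 DMSO library left out and M2 DMSO replicate 1 or 3 left out. SDHD had 0.02 and -0.15 and was not called in either.

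In complex III, 6 of 10 genes fell in DMSO and 7 with MCHP, with medians of -0.41 and -0.52, and all 10 lay below 0 in both comparisons. UQCRQ, a small subunit that contacts the cytochrome b protein, had 14.7, 21.6 and 17.0 CPM in M1 DMSO and 39.5, 28.4 and 34.9 CPM in M2 DMSO, then 14.9, 16.2 and 17.4 CPM in M1 MCHP and 25.1, 29.7 and 21.2 CPM in M2 MCHP. M1 and M2 did not overlap in either pair. UQCRQ fell by 0.94 on the log2 scale in DMSO (SE 0.15, edgeR adjusted p = 3.4e-05) and by 0.65 with MCHP, and it shares 20.8% of its exon bases with another gene. UQCRB, the ubiquinone-binding protein, fell by 0.70 and 0.84.

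The core proteins UQCRC1 and UQCRC2, which face the matrix and resemble processing peptidases, fell in both comparisons (-0.58 and -0.53 in DMSO, -0.75 and -0.47 with MCHP). UQCRC1 had 242, 245 and 232 CPM in M1 DMSO and 329, 365 and 379 CPM in M2 DMSO, with no overlap. Of the redox proteins, UQCRFS1, the Rieske iron-sulfur protein, fell by 0.29 and 0.28. CYC1, cytochrome c1, was not called in DMSO (-0.21), fell there without M2 DMSO replicate 1 (-0.33, edgeR adjusted p = 2.3e-05), and fell by 0.30 with MCHP. UQCRH, the hinge protein that holds cytochrome c1 and cytochrome c together, fell by 0.31 in DMSO and 0.78 with MCHP, but the difference between these values was not called (edgeR adjusted p = 0.30), and the DMSO call was lost without M1 DMSO replicate 3 or M2 DMSO replicate 3. UQCRHL, a near copy of UQCRH that can share its reads, was not called (-0.51 and -0.56, at 2.07 to 5.07 CPM), but it fell in DMSO without M2 DMSO replicate 1 (-0.75, edgeR adjusted p = 0.008).

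In complex IV, 7 of 11 tested genes fell in DMSO and 6 with MCHP, with medians of -0.51 and -0.47. NDUFA4 and NDUFA4L2 are counted here, because NDUFA4, first assigned to complex I, is a subunit of cytochrome c oxidase. COX7C, COX6C, COX7B and COX5B had log2 differences of -0.66, -0.63, -0.61 and -0.61 in DMSO, and -0.47, -0.57, -0.54 and -0.65 with MCHP. COX5B, which binds zinc on the matrix side, had 81.3, 99.4 and 87.8 CPM in M1 DMSO and 130, 131 and 148 CPM in M2 DMSO, with no overlap. COX5A, its neighbour, fell by 0.35 and 0.56, and its DMSO call was lost without M2 DMSO replicate 3. The MCHP call of COX7C was lost without M1 MCHP replicate 1 or M2 MCHP replicate 2. NDUFA4 had 44.4, 51.5 and 48.4 CPM in M1 DMSO and 79.6, 67.3 and 68.1 CPM in M2 DMSO, and it fell by 0.57 in DMSO (SE 0.09, edgeR adjusted p = 5.2e-05) and by 0.58 with MCHP.

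The values of several complex IV genes moved with the library that stands apart, and of their calls that of COX7A2 was lost without it. COX7A2, a small membrane subunit, had 70.9 CPM in M2 DMSO replicate 1 and 42.5 and 43.9 CPM in the other M2 DMSO libraries. Its fall in DMSO (-0.51, edgeR adjusted p = 0.013) was -0.23 (edgeR adjusted p = 0.05) without that library, and the call was also lost without M1 DMSO replicate 1. COX7B had 76.9 CPM in that library against 47.1 and 53.4 CPM, and its fall of 0.61 was -0.38 (edgeR adjusted p = 0.00037) without it. COX6A1 went the other way, with 8.95 CPM in that library against 25.1 and 22.5 CPM, and its log2 difference was 0.11 with it and -0.23 (edgeR adjusted p = 0.12) without. COX8A, at 24.6 CPM there against 52.0 and 45.8 CPM, had 0.04 with it and -0.22 without (edgeR adjusted p = 0.057), and it shares 34.5% of its exon bases. That library was thus high for some small subunits and low for others, with 7 of the 80 genes at least 1.5-fold below and 2 at least 1.5-fold above both other M2 DMSO libraries. COX6B1, which faces the intermembrane space, was not called with it (-0.15) and fell without it (-0.28).

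Isoforms known from other tissues were near the limit of counting. The muscle or testis forms COX6A2, COX6B2, COX7A1, COX7B2 and COX8C had 0 to 9 counts summed over the 3 libraries of any group and were not tested. NDUFA4L2, a paralog known as a hypoxia-induced gene, had 4.71 to 8.72 CPM and log2 differences of -0.25 and 0.09, neither called. The ubiquitous forms COX6A1, COX6B1 and COX8A thus made up these families here. The read-through genes NDUFC2-KCTD14 and ATP5MF-PTCD1 and the gene ATP5MGL had at most 3 counts in any group and were not tested either.

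In complex V, 12 of 19 tested genes fell in DMSO and 11 with MCHP, with medians of -0.38 and -0.34. The c-ring, the rotor that protons turn, is coded by 3 genes for the same mature protein. ATP5MC3 had 74.8, 83.5 and 72.7 CPM in M1 DMSO and 132, 124 and 135 CPM in M2 DMSO, with no overlap, and fell by 0.76 in DMSO (SE 0.07, edgeR adjusted p = 9.1e-08) and by 0.70 with MCHP. ATP5MC1 fell by 0.51 and 0.28, and ATP5MC2 by 0.31 in DMSO, while its value with MCHP, -0.19, was not called. The MCHP call of ATP5MC1 was lost without replicate 1 or 2 of either MCHP group, and the DMSO call of ATP5MC2 without M1 DMSO replicate 3.

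The catalytic head followed. ATP5F1B, the catalytic beta subunit, had 578, 587 and 573 CPM in M1 DMSO and 763, 779 and 799 CPM in M2 DMSO, and it fell by 0.43 in DMSO (SE 0.05, edgeR adjusted p = 6.1e-07) and by 0.54 with MCHP. ATP5F1A, the alpha subunit, fell by 0.36 and 0.53 and ATP5F1C, the gamma subunit of the shaft, by 0.38 and 0.40. ATP5F1D and ATP5F1E, the delta and epsilon subunits, were not called (-0.13 and -0.11 in DMSO), although ATP5F1D fell without M2 DMSO replicate 1 (-0.28, edgeR adjusted p = 0.0013). The peripheral stalk, which holds the head still, had 3 of 4 genes lower in DMSO (ATP5PO -0.61, ATP5PF -0.61 and ATP5PB -0.54) and 4 of 4 with MCHP, where ATP5PD joined at -0.28. ATP5PO and ATP5PF share 25.4% and 23.1% of their exon bases with other genes. Of 5 small membrane subunits, which hold ATP synthase dimers and the stator together, ATP5MD (-0.51), ATP5MF (-0.44) and ATP5MPL (-0.43) fell in DMSO, and ATP5MD (-0.53) and ATP5MG (-0.34) with MCHP.

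ATP5IF1, the inhibitor that blocks reverse rotation, was not called in either comparison. It had 17.9, 18.9 and 19.7 CPM in M1 DMSO and 17.0, 18.9 and 19.8 CPM in M2 DMSO, a log2 difference of 0.02 (SE 0.11). The ranges overlapped almost entirely. ATP5S is counted in complex V by its name alone. It is today called DMAC2L, after its likeness to DMAC2, a distal membrane-arm assembly factor of complex I. It had 0.42 in DMSO (edgeR adjusted p = 0.073), and without M2 DMSO replicate 1 it rose (0.56, edgeR adjusted p = 0.014).

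**Figure D3:**
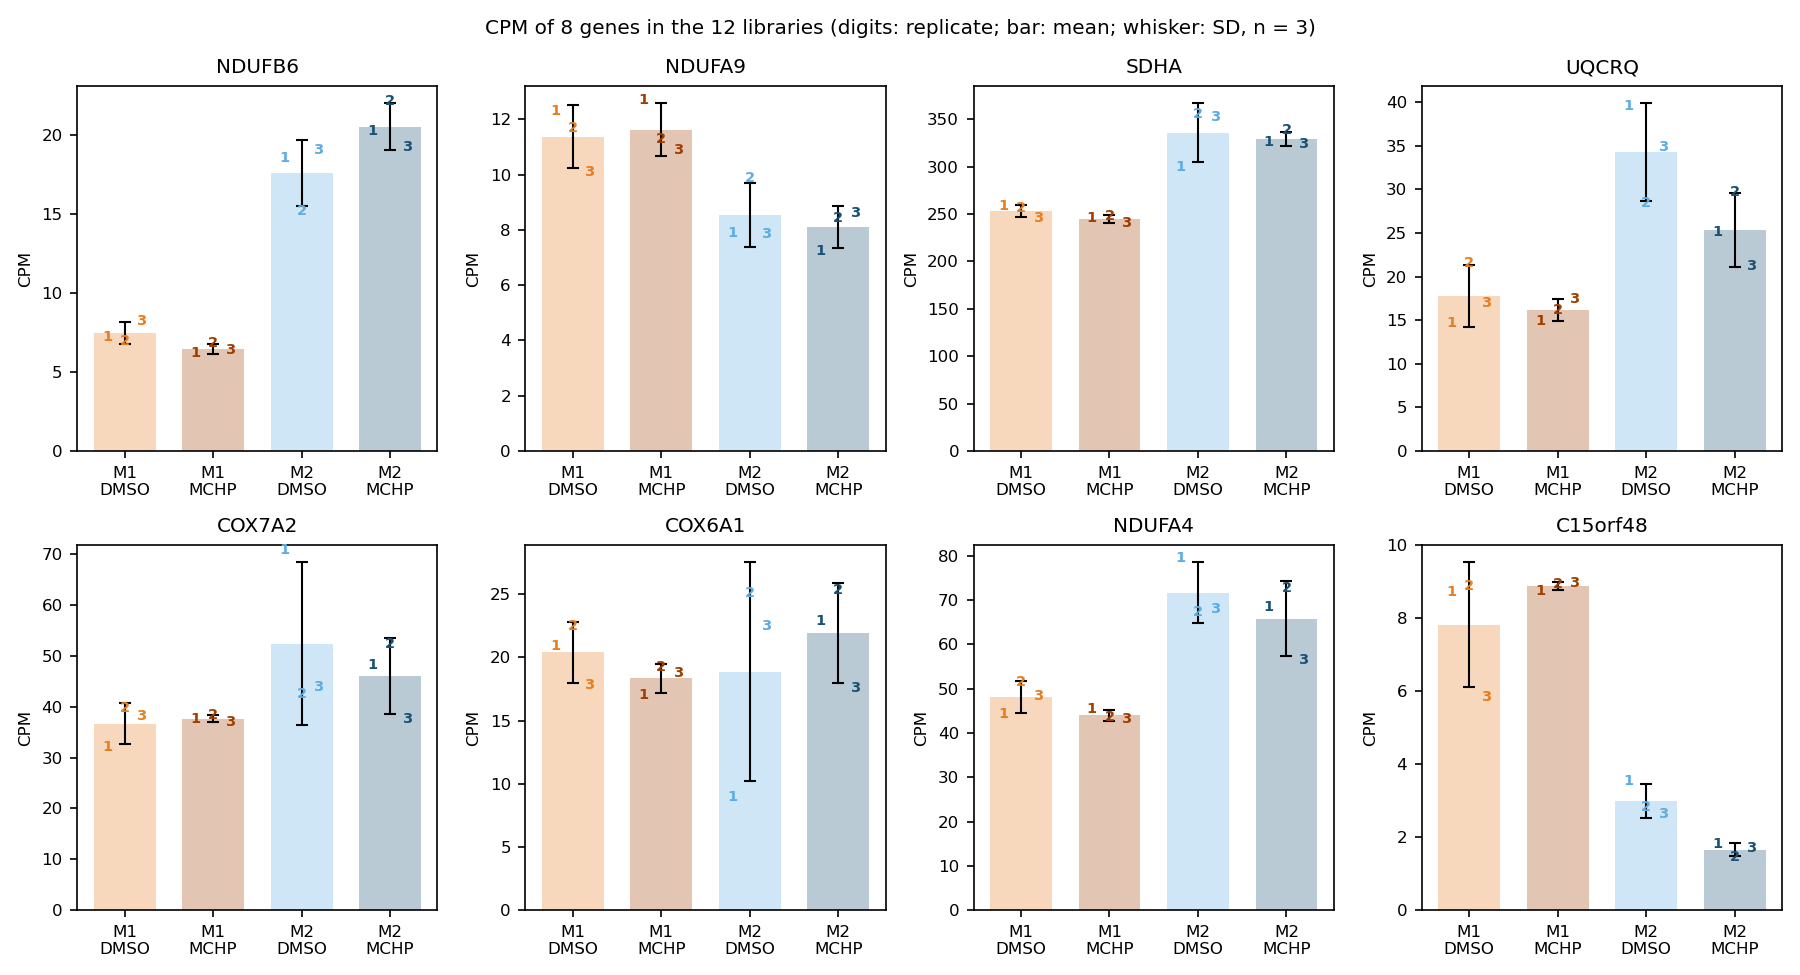
CPM of 7 subunit genes and of C15orf48, the paralog of NDUFA4, in each library (digits are replicate numbers), with the group mean as a bar from 0 and the SD as a whisker (n = 3). NDUFB6, SDHA, UQCRQ and NDUFA4 are lower in M1, NDUFA9 and C15orf48 are higher in M1, and M2 DMSO replicate 1 is far above its group in COX7A2 and far below it in COX6A1.

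Levels per length put the complexes on a common scale, in CPM per kilobase of gene model as a mean of all 12 libraries. ATP5F1B was highest of all at 293, UQCRC1 highest in complex III at 93.3, COX8A in complex IV at 82.4, NDUFS5 in complex I at 104 and SDHA in complex II at 34.7. The lowest tested genes were NDUFV2 (0.246), SDHC (5.54), UQCRHL (1.42), NDUFA4L2 (2.32) and ATP5S (0.658). NDUFV2 and ATP5S share 28.4% and 20.1% of their exon bases with other genes, so their levels are uncertain. These levels depend on the length used: with the length of the principal transcript SDHA was at 122, COX5B, at 153, was above COX8A, and NDUFB4, at 106, was above NDUFS5. They also depend on the state: per kilobase of gene model COX8A was highest in complex IV in M1, while in M2 COX5B, at 94.6 in DMSO and 88.6 with MCHP, was above COX8A, at 80.5 and 82.2.

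MCHP changed no subunit gene past the threshold in either state. In M1, 0 of 80 genes were called (edgeR; 0.0852% of all tested genes were called, 0.0721% higher and 0.0131% lower), the smallest edgeR adjusted p was 0.82, and 6 had an unadjusted p under 0.05, beside 5.36% of all tested genes. In M2, 0 of 80 were called (edgeR; 5.11% of all tested genes were, 2.92% higher and 2.18% lower), the smallest edgeR adjusted p was 0.091, and 8 had an unadjusted p under 0.05, beside 18.8% of all tested genes. DESeq2 and limma-voom called 0 in both states as well. The medians were -0.09 in M1 and -0.08 in M2, with 65 and 53 of 80 genes below 0. The summed level in the M1 MCHP libraries (3829, 3781 and 3794 CPM) lay below that in every M1 DMSO library (3917, 4169 and 3933 CPM), a ratio of 0.949, and so did the sums of complexes I, III and V, with ratios of 0.953, 0.941 and 0.95. The M2 sums overlapped (ratio 0.990), and the summed levels were not tested. In M1 libraries did not overlap for 10 lower and 2 higher genes, beside 7.58% and 8.35% of all tested genes, and in M2 for 4 and 2, beside 9.53% and 11.2%. The 95% interval of the change lay within 1.5-fold in either direction for 70 genes in M1 and 65 in M2, so larger changes of those genes lie outside their intervals.

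The lowest p in M2 belonged to UQCRQ. Its M2 libraries had 39.5, 28.4 and 34.9 CPM in DMSO and 25.1, 29.7 and 21.2 CPM with MCHP, a log2 difference of -0.43 (SE 0.14, edgeR adjusted p = 0.091). The highest MCHP library lay above the lowest DMSO library, so the groups overlapped. Next to it stood UQCR11 (-0.33), COX7C (-0.32), COX6C (-0.24), ATP5MC2 (-0.20), ATP5MC1 (-0.19) and the sparse NDUFA7 (-1.43), all below 0, and UQCRH (0.24), above 0. In M1 the members with an unadjusted p under 0.05 all lay below 0: NDUFB3 (-0.45), ATP5PO (-0.31), UQCRB (-0.26), ATP5IF1 (-0.25), UQCRH (-0.23) and ATP5PB (-0.15). None of these was called.

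A few alternatives did call genes in M2. With no filter on low counts COX7C (edgeR adjusted p = 0.0076) and UQCRQ (0.0027) fell. Without M2 DMSO replicate 1 NDUFB7 (-0.37, edgeR adjusted p = 0.0024) and UQCR10 (-0.33, 0.031) fell, and without M2 DMSO replicate 2 UQCRQ did (-0.55, 0.036). Without M2 MCHP replicate 2 it was UQCR11 (-0.52, 0.034). These genes were singled out after their values were seen, and no gene besides UQCRQ was called in more than 1 of the alternatives.

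**Figure D4:**
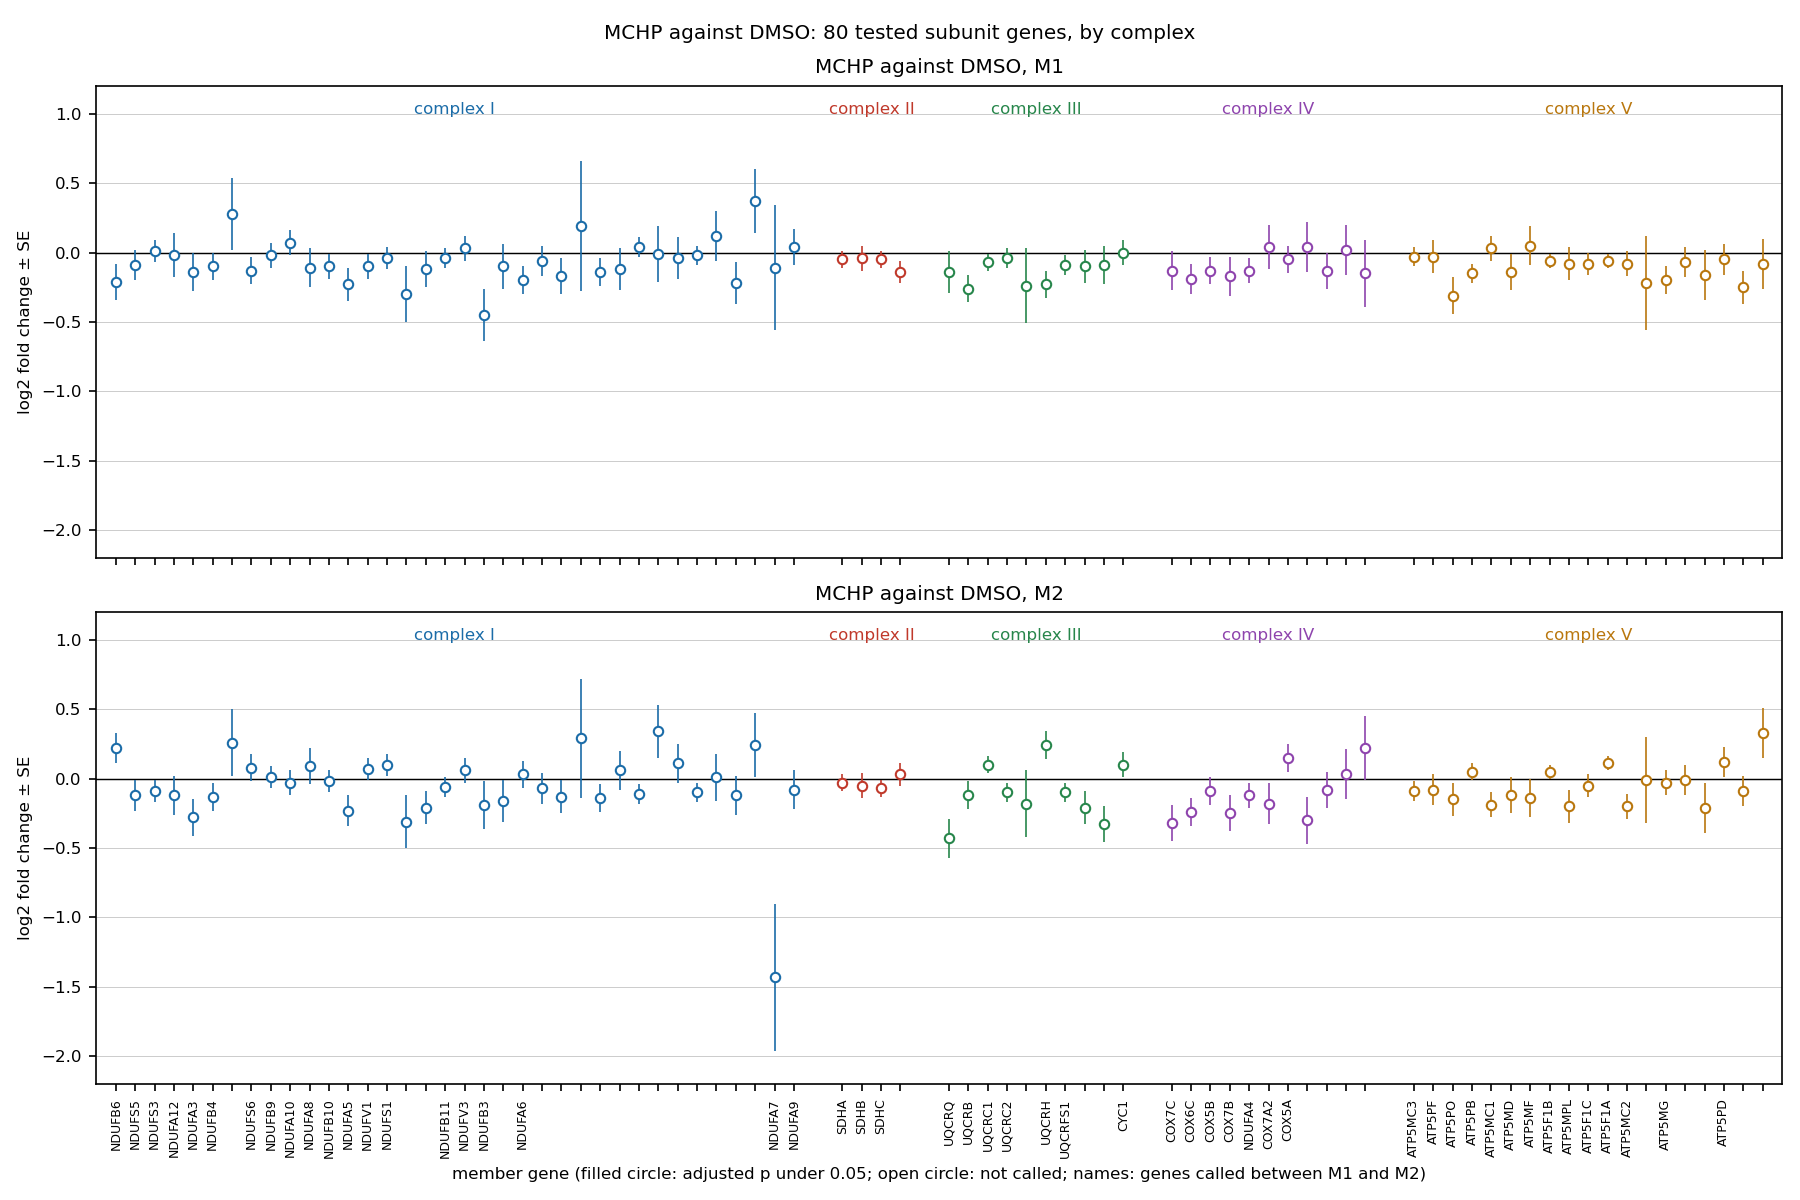
Log2 fold change (MCHP over DMSO) with its standard error for the 80 tested subunit genes, grouped by complex in the order of the M1 against M2 plot, in M1 (top) and M2 (bottom), with names for genes called between M1 and M2. All circles are open, since none was called, most lie near 0, and NDUFA7 stands out in M2 at -1.43 with a wide error.

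The response to MCHP was compared between the states directly. Of the 80 genes 0 were called for the difference of responses (edgeR; 0.164% of all tested genes were called, 0.059% higher and 0.105% lower), and 4 had an unadjusted p under 0.05, beside 8.84% of all tested genes. DESeq2 and limma-voom called 0 too, and the 95% interval lay within 1.5-fold for 57 genes. The lowest edgeR adjusted p, 0.30, was that of UQCRH, with a difference of -0.47 (M1 minus M2). Without the filter on low counts UQCRH was called (edgeR adjusted p = 0.025).

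Libraries of the same group also differed in these genes together. In M2 MCHP replicate 2, 73 of the 80 genes lay above the average of replicates 1 and 3 (median log2 difference 0.18), and in M2 MCHP replicate 3 only 10 lay above that of replicates 1 and 2 (-0.19). In M1 DMSO replicate 2, 63 genes lay above replicates 1 and 3 (0.10). The share of counts from mitochondrially encoded subunits was 3.76% in M2 MCHP replicate 3 and 3.21% and 3.28% in the other libraries of that group. Without M2 MCHP replicate 3 the number of genes lower in M1 with MCHP was 49, and without M2 MCHP replicate 2 it was 37.

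In the M1 against M2 comparisons, subunits made inside the mitochondrion differed from the nuclear genes more in DMSO than with MCHP. This was not tested. Summed over 13 genes, the mitochondrially encoded subunits held 25096, 24613 and 27022 CPM in M1 DMSO, and 27204, 26714 and 26511 CPM in M2 DMSO. These ranges overlapped, with a ratio of 0.954. In DMSO 2 of the 13 rose in M1 (MT-ND5 and MT-ND6, 0.21 each) and 1 fell (MT-ND2, -0.21). The shares of all tested genes were 21.6% and 20.9%. Without M1 DMSO replicate 3, 0 rose, and with library size alone 0 rose and 5 fell. With MCHP the sums were 26496, 28350 and 26224 CPM in M1 and 31357, 32136 and 36990 CPM in M2, which did not overlap. Of the 13 genes 9 fell in M1 with MCHP, beside 22.7% of all tested genes. Their median was -0.31, beside -0.34 for the nuclear genes, while in DMSO the medians were -0.08 and -0.32. In M2 itself MCHP raised 9 of the 13, among them MT-CYB of complex III (0.45, edgeR adjusted p = 0.0017), MT-ATP6 of complex V (0.44), MT-CO3 of complex IV (0.43) and MT-ND5 of complex I (0.46), while 0 of the 80 nuclear genes were called. Of all tested genes MCHP raised 2.92% in M2. A fit of the M2 libraries alone called 0 of the 13 (median 0.39), and the count was 5 without M2 MCHP replicate 3, the library with the highest mitochondrial share. In M1 MCHP changed 0 of the 13 past the threshold by edgeR, DESeq2 and limma-voom, with 2 at an unadjusted p under 0.05, while a fit of the M1 libraries alone called 2 of the 13 higher. The difference of responses was called for 0 of the 13 by these tools, with 9 at an unadjusted p under 0.05 by edgeR, for 6 with no filter on low counts and for 4 without M2 DMSO replicate 1. Of all tested genes 5.36% had an unadjusted p under 0.05 in M1 by edgeR, and 8.84% for the difference.

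Of 5 genes of the chain that the name rule misses, 3 fell and 1 rose in M1 in each comparison. The shares of all tested genes were 20.9% and 21.6% in DMSO, and 22.7% and 21.9% with MCHP. COX4I1, the largest nuclear subunit of complex IV, fell in M1 by 0.45 in DMSO and 0.31 with MCHP, NDUFAB1, the acyl carrier protein of complex I, by 0.62 and 0.40, and CYCS, cytochrome c, by 0.17 and 0.44, of which the DMSO call was lost in 6 of 14 alternatives. COX7A2L, a relative of COX7A2 known for joining complexes III and IV, was not called (-0.03 and -0.12). C15orf48, known as an inflammation-induced paralog that can replace NDUFA4 in complex IV, had 8.72, 8.90 and 5.85 CPM in M1 DMSO and 3.53, 2.82 and 2.62 CPM in M2 DMSO. With MCHP it had 8.76, 8.93 and 8.98 CPM in M1 and 1.81, 1.45 and 1.71 CPM in M2. It rose where NDUFA4 fell, with no overlap, by 1.39 on the log2 scale in DMSO (SE 0.18, edgeR adjusted p = 5.4e-06) and 2.42 with MCHP. MCHP lowered it in M2 (-0.85, edgeR adjusted p = 0.033), a call lost in 7 of 14 alternatives.

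Assembly factors are read against the 20.9% of all tested genes that fell and the 21.6% that rose in M1 in DMSO. For complex I, 4 of 17 fell and 3 rose, shares near that background, among them NDUFAF4 (-0.63) and NUBPL (-0.94), which fell, and TMEM126B (0.81) and TIMMDC1 (0.32), which rose and belong to the group that builds the membrane arm. For complex IV, 2 of 22 fell (COX11 -0.53 and COX18 -0.34) and 2 rose (SCO1 0.38 and SCO2 3.22, both copper chaperones). SCO2 shares 83.9% of its exon bases with a second gene model of that name, so its count is uncertain. For complex V, TMEM70 (-0.60) and ATPAF2 (-0.29, lost in 8 of 14 alternatives) fell and for complex III LYRM7 (-0.44) and BCS1L (-0.70) fell among 6. For complex II 0 of 4 fell in DMSO and 1 of 4, SDHAF4 (-0.77), with MCHP, beside 22.7% of all tested genes. The SDHAF4 call was lost in 2 of 15 alternatives. In DMSO the calls of NUBPL and BCS1L were each lost in 2 of 14, and those of TIMMDC1 and LYRM7 in 1 of 14.

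Genes of the citrate cycle, which feeds NADH and succinate to the chain, mostly fell in M1. In DMSO 8 of 13 genes fell and 1 rose, beside 20.9% and 21.6% of all tested genes. With MCHP 10 fell and 1 rose, beside 22.7% and 21.9%. FH, fumarase, had 44.2, 47.3 and 45.2 CPM in M1 DMSO and 88.3, 75.8 and 70.2 CPM in M2 DMSO, and fell by 0.78, and IDH3A, of the NAD-dependent isocitrate dehydrogenase, fell by 0.66, although it shares 38.2% of its exon bases with ACSBG1. Of 7 genes listed as mitochondrial carriers, channels and the itaconate enzyme, 5 fell and 2 rose in DMSO, beside the same 20.9% and 21.6%. Among those that fell were the carriers that exchange ATP and phosphate, with SLC25A5 at -0.45, SLC25A3 at -0.43 and the outer-membrane channel VDAC1 at -0.49. ACOD1, which makes itaconate, an inhibitor of succinate dehydrogenase, had 80, 85 and 78 counts in M1 DMSO and 3, 7 and 4 counts in M2 DMSO, and rose in M1 (edgeR adjusted p = 1.3e-09). UCP2, an inner-membrane carrier, rose too (0.24, edgeR adjusted p = 0.023).

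A list of regulators held transcription factors and coactivators known to act on nuclear subunit genes. It also held TFAM, TFB1M, TFB2M and POLRMT, which serve expression of the mitochondrial genome, and 13 of the listed genes were tested. In DMSO 3 of 13 fell and 1 rose, beside 20.9% and 21.6% of all tested genes, and with MCHP 6 fell and 1 rose, beside 22.7% and 21.9%. PPARGC1B, a coactivator of mitochondrial biogenesis, had 27.9, 30.6 and 27.3 CPM in M1 DMSO and 44.2, 47.1 and 42.8 CPM in M2 DMSO, and fell by 0.64 (edgeR adjusted p = 1.7e-06). YY1 fell by 0.26 and HIF1A, the hypoxia factor, rose by 1.12. NRF1 (0.10), TFAM (-0.14) and ESRRA (-0.13) were not called in DMSO, and with MCHP ESRRA (-0.27) and TFAM (-0.23) fell, calls lost in 5 and 7 of 15 alternatives. PPARGC1A had 0 to 0.567 CPM and was not tested.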

How the data were processed

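Polyadenylated RNA was sequenced from 12 libraries of 4 groups. What the authors deposited are raw counts per gene, whole numbers, with each gene model's coordinates and length. Tools named, without roles or a strand setting, in the submitters' processing notes are DESeq2 1.20.0, featureCounts 1.5.0-p3, HISAT2 2.0.5, fastp and StringTie 1.3.3b, and the build is hg38. Reads of overlapping or antisense genes therefore cannot be told apart. Coordinates and lengths of all 88 genes equal those of GENCODE release 29, in which 21 share over 20% of their exon bases with another gene. Of 44 genes with named pseudogenes, 2 (NDUFV2 and COX6A1) had pseudogene counts over 10% of their own.

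The analysis used edgeR 4.0.16 in R 4.3.3: filterByExpr, TMM scaling, 1 fit of all 12 libraries with a mean per group (8 residual degrees of freedom) and two-sided quasi-likelihood tests of 5 contrasts. P-values were Benjamini-Hochberg adjusted over 15252 genes, with a threshold of 0.05. CPM are TMM-scaled. The 172 rows with an identifier but no symbol stayed in. Replicates of a group differed by more than sampling noise (chi-square per degree of freedom 2.22 or more). The fit was also run on simulated counts, drawn independently for each library with no library that stands apart. No conclusion about these data is drawn from that run. Alternatives were DESeq2 1.42.0, limma-voom (limma 3.58.1), other scalings, no filter, a replicate block, other sample and gene subsets, and each library left out. Members counted without those sharing exons, list counts and summed levels under other settings were alternatives chosen after seeing the data. Genes were named by complex, direction and size of change among called members (at most 4 each way), with complex II, tissue isoforms and a fixed set of pathway genes added. Further members were named after their values were seen, to complete a role, to show a promoter or for an unadjusted p or an alternative in an MCHP comparison: ATP5F1A, ATP5F1C, ATP5F1D, ATP5F1E, ATP5PD, CYC1, ATP5MD, ATP5MF, ATP5MG, ATP5MPL, NDUFB3, NDUFB4, NDUFB7, NDUFS1, NDUFS7, NDUFS8, NDUFV1, UQCR10, UQCR11 and UQCRFS1. Members and lists were chosen with earlier results of these data known. Figures used matplotlib 3.10.9.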

Additional observations from a re-analysis of the deposited data

How the results depend on the processing

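The counts of subunit genes called between M1 and M2 kept their direction and stayed within 1.5 times of the values given under every alternative. In DMSO 45 were called, 39 to 53 with single libraries left out, 56 with library size alone (all lower, with the median of all genes at -0.132) and 46 with the replicate block. With MCHP 46 were called, 38 to 57 with single libraries left out, 56 with library size alone, 55 with only the groups compared and 44 with the replicate block. The shares of all tested genes called under these alternatives were not counted. Without the members that share over 20% of their exon bases, 38 of 63 fell and 1 rose in each comparison. In the MCHP comparisons the replicate block gave 0 calls, as did every other alternative except no filter (2 in M2 and 1 for the difference of responses) and single libraries left out (0 to 2 in M2, 0 in M1 and for the difference). The cause was not tested. Under library size alone the ratios of summed levels in DMSO were 0.726 for complex I, 0.732 for complex II, 0.656 for complex III, 0.668 for complex IV and 0.692 for complex V, and the median difference of responses reversed to 0.03 from -0.01. Of 146 calls of named genes between M1 and M2, 114 held under every alternative, while every named call for MCHP in M2 was lost under at least 1. Replicate numbers did not pair the libraries (correlations of -0.05 to 0.04 between libraries of the same number). Counting error limits genes under 1 CPM, such as NDUFV2 and NDUFA7.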

Other observations

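Ribosomal protein genes, which are also highly expressed, short and nuclear-encoded, give a scale for the subunit genes. Of 78 tested cytosolic ribosomal protein genes, 60 fell in M1 in DMSO and 1 rose, beside 20.9% and 21.6% of all tested genes. Their median was -0.39. With MCHP 66 fell, beside 22.7% of all tested genes, with a median of -0.44. RPL4 and RPL3, of the large subunit, fell by 0.61 and 0.60 in DMSO, and RPS6, of the small subunit, by 0.64. The median fall of the subunit genes in DMSO, -0.32, stood beside these values, and the difference between the lists was not tested.

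Mitochondrial ribosomal proteins, which translate the mitochondrially encoded subunits, numbered 77. In DMSO 20 of 77 fell and 3 rose, beside 20.9% and 21.6% of all tested genes, with a median of -0.10, and with MCHP 22 fell and 5 rose, beside 22.7% and 21.9%. The difference from the subunit genes was not tested. MRPS6 was the exception in size, with 109, 107 and 98.8 CPM in M1 DMSO and 478, 370 and 377 CPM in M2 DMSO, a fall of 1.96 on the log2 scale (edgeR adjusted p = 2.2e-12). MCHP lowered it in M2 to 327, 346 and 292 CPM, by 0.34 (edgeR adjusted p = 0.026), a call lost in 3 of 14 alternatives: with only the M2 libraries fitted and without M2 MCHP replicate 1 or 3.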
